A study of Ovis aries with 3 samples.

Results

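The let-7 family was followed in small RNA libraries of sheep left ventricle. Its members were the entries of the deposited count tables whose name, without the species prefix, was let-7a to let-7i or miR-98, and 28 of 636 entries met this rule. There were 13 guide entries, named 5p or without an arm, and 15 passenger entries, named 3p. Of the 28, 7 came from the table of known sheep miRNAs (oar-) and 21 from the table of miRNAs known in human, mouse or rat (hsa-, mmu-, rno-). Perfectly matched reads made up 21 entries, and reads matched over 70 to 99% made up 7. A mean of at least 10 counts was reached by all 13 guides and by 9 of the 15 passengers, and the other 6 passengers had means of 1.00 to 3.67 counts. All samples were Coopworth ewes, and RNA was pooled before sequencing, so each condition was 1 library. The recovery library (HF-R) pooled 4 sheep whose pacing had been stopped, for 26 days by the treatment notes or 14 days by the sample description. The heart failure library (HF) pooled 6 sheep whose left ventricle was paced fast, for 13 days at 220 bpm by the treatment notes or for 14 days at 225 bpm by the description. The control library (Cont) pooled 4 normal sheep. The variation from sheep to sheep is hidden by the pooling, so no difference below was tested against it.

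The distinct entries summed to 5990078 counts in HF-R, 6154795 in HF and 4711131 in Cont, and levels are given as counts per 1000000 of these sums (CPM). A ratio of CPM carries a 95% Clopper-Pearson interval, which covers counting error only, since PCR copies were not told apart. A call needed a change of 1.5-fold or more in either direction together with an interval that excluded 1. The cardiomyocyte miRNAs (miR-1, miR-133, miR-208a, miR-208b and miR-499a entries) reached 388546 CPM in HF-R, 319778 in HF and 323617 in Cont. Liver miR-122 was at 0.501, 5.85 and 0.637 CPM in HF-R, HF and Cont. Fibroblast miRNAs (4 entries of miR-199 and miR-214) summed to 1768 CPM in HF-R, 1616 in HF and 1267 in Cont, and 5 red blood cell entries to 2899, 3446 and 3473 CPM in HF-R, HF and Cont. In pooled tissue a change in cell make-up and a change of miRNA per cell cannot be told apart, and the part of these cell types in the let-7 ratios was not tested.

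Let-7 was discovered as a timing gene of the nematode Caenorhabditis elegans and is conserved across animals. Mammals carry several let-7 genes and the close relative miR-98, whose guide strands share 1 seed, the bases that pair with target mRNAs, so that members can repress the same targets, among them RAS genes and HMGA2. The family is low in early embryos, where LIN28 blocks maturation of its precursors, and abundant in differentiated tissue such as the adult heart. The guide lies on the 5′ side of the let-7 hairpin and is loaded into Argonaute, while the passenger on the 3′ side is usually degraded.

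The guide sequences of each gene are shown because the whole family shares the seed and members differ by few bases, which decides how far reads can be told apart. Positions are from the sheep genome build Oar v4.0 as the deposited tables give them, sequences run 5′ to 3′ in DNA letters, and capitals mark the seed (bases 2 to 8).
let-7a-5p (chr2:27330017-27330038, minus strand): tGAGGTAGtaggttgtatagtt
let-7c-5p (chr1:138651674-138651695, minus strand): tGAGGTAGtaggttgtatggtt
oar-let-7b (chr3:220323539-220323559, plus strand): tGAGGTAGtaggttgtgtggt
oar-let-7d (chr2:27327458-27327477, minus strand): aGAGGTAGtaggttgcatag
let-7e-5p (chr14:56457198-56457219, plus strand): tGAGGTAGgaggttgtatagtt
oar-let-7f (chrX:49406229-49406249, plus strand): tGAGGTAGtagattgtatagt
oar-let-7g (chr19:48614062-48614082, plus strand): tGAGGTAGtagtttgtacagt
let-7i-5p (chr3:156661992-156662013, minus strand): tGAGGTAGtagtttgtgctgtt
hsa-miR-98-5p (chrX:49407111-49407132, plus strand): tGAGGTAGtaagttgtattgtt

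All 13 guide entries carried the seed GAGGTAG, and no other entry of the tables did. Counted from 1 at the 5′ end, let-7c-5p differs from let-7a-5p only by A19G, let-7f by G12A and let-7e-5p by T9G. Let-7g differs by G12T and T18C, and miR-98-5p by G11A and A19T. Let-7i-5p was the most distant guide, with 4 substitutions from let-7a-5p. Let-7d, let-7f-1 and let-7a-1 lie within 2637 bp on chromosome 2, with 9 of the 28 entries, and let-7f-2 and miR-98 within 962 bp on chromosome X. The exact let-7a guide was listed at 2 loci, on chromosomes 2 and 15, and the let-7f guide on chromosomes 2 and X, so their counts cannot be divided between the gene copies.

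The passengers do not share 1 seed, and they are shown because several of them differ from each other by only 1 to 3 bases.
let-7a-1-3p (chr2:27329966-27329987, minus strand): cTATACAAtctactgtctttcc
let-7f-1-3p (chr2:27329606-27329627, minus strand): cTATACAAtctattgccttccc
let-7f-2-3p (chrX:49406279-49406300, plus strand): cTATACAGtctactgtctttcc
miR-98-3p (chrX:49407169-49407190, plus strand): cTATACAActtactactttccc
let-7d-3p (chr2:27327402-27327423, minus strand): cTATACGAcctgctgcctttct
let-7c-3p (chr1:138651629-138651650, minus strand): cTGTACAAccttctagctttcc
let-7e-3p (chr14:56457243-56457264, plus strand): cTATACGGcctcctagctttcc
let-7a-2-3p (chr15:32287270-32287291, minus strand): cTGTACAGcctcctagctttcc
let-7i-3p (chr3:156661936-156661957, minus strand): cTGCGCAAgctactgccttgct

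The 15 passenger entries fell into 8 seeds. Let-7f-2-3p becomes let-7a-1-3p by the single substitution G8A, which lies in the seed. Let-7f-1-3p becomes let-7a-1-3p by T13C, C16T and C20T, outside the seed.

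Let-7 guides were a large part of the miRNA counts of the left ventricle. The 13 guides summed to 651992 counts in HF-R, 569006 in HF and 458264 in Cont, or 10.9%, 9.24% and 9.73% of the counts in HF-R, HF and Cont. Some reads were counted under several names, so these are shares of summed entry counts and not of reads. The summed guide ratio was 0.95 for HF/Cont, 1.12 for HF-R/Cont (1.11 to 1.12) and 1.18 for HF-R/HF (1.17 to 1.18), below the size needed for a call. The HF-R/HF sum reached a call under TMM scaling of edgeR, at 1.51, and no other scaling called a guide sum. The perfectly matched passengers took 0.0259% of the counts in HF-R, 0.0283% in HF and 0.0354% in Cont. With the partial entries of let-7f-1-3p, which count the same reads under 2 lengths, all 15 passenger entries took 0.103% in HF-R, 0.114% in HF and 0.127% in Cont.

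Let-7c-5p, let-7i-5p and let-7g held nearly all of the guide counts, 91.0% in HF-R, 90.3% in HF and 91.3% in Cont. Let-7c-5p (hsa-/mmu-/rno-/oar-let-7c-5p in the tables) was first in each library, with 265816 counts in HF-R, 269632 in HF and 185479 in Cont. It made up 40.8% of the guide counts in HF-R, 47.4% in HF and 40.5% in Cont. Among all entries it ranked 6 in HF-R and 7 in both HF and Cont. Let-7i-5p (hsa-/mmu-/rno-/oar-let-7i-5p) followed with 180571 counts in HF-R, 156455 in HF and 133361 in Cont, and its share of the guides stayed between 27.5% and 29.1%. Oar-let-7g was next, with 146911 counts in HF-R, 87913 in HF and 99345 in Cont. Its share was 22.5% in HF-R, 15.5% in HF and 21.7% in Cont, so the lower share in HF stood beside a higher one of let-7c-5p.

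**Figure D1:**
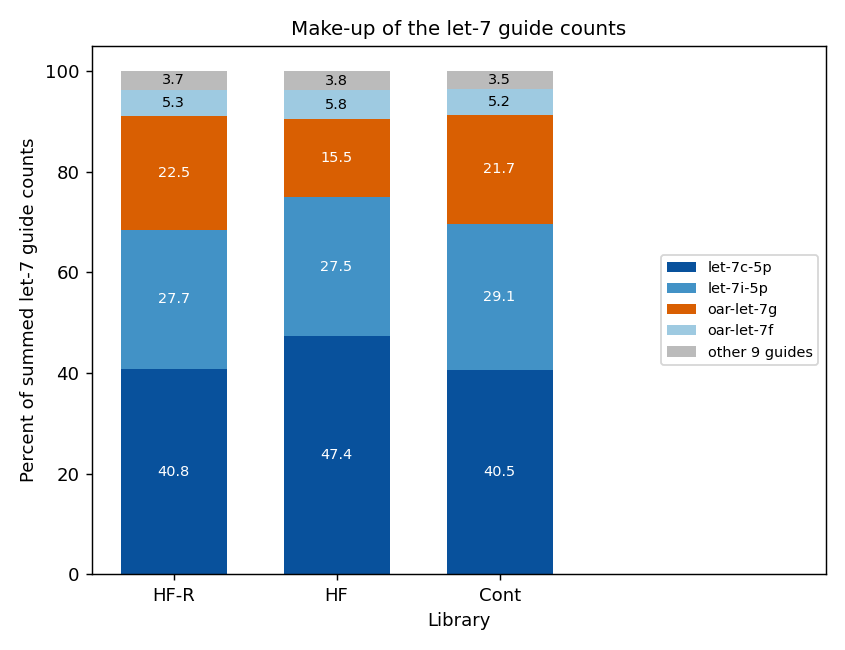
Share of each guide in the summed let-7 guide counts (y axis, percent) in the HF-R, HF and Cont libraries (x axis), 1 bar per pooled library with the share printed in each segment. Oar-let-7g takes 15.5% in HF against 22.5% in HF-R and 21.7% in Cont, and let-7c-5p takes 47.4% in HF.

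Below these 3, levels fell steeply. Oar-let-7f had 34793 counts in HF-R, 32879 in HF and 23807 in Cont, and hsa-/mmu-/rno-/oar-let-7a-5p 10344 in HF-R, 9570 in HF and 6981 in Cont. Let-7c-5p therefore exceeded let-7a-5p, from which it differs by 1 base, 25.70 times in HF-R, 28.17 times in HF and 26.57 times in Cont. Oar-let-7d had 6579 counts in HF-R, 5306 in HF and 4391 in Cont. Hsa-miR-98-5p, the member with its own family name, had 3328 counts in HF-R, 4284 in HF and 2259 in Cont, and oar-let-7b 2824 in HF-R, 2180 in HF and 2100 in Cont. The order of the first 11 guides was the same in all 3 libraries. Neighbours in the order differed by more than counting error for 11 of 12 pairs in HF-R, 11 of 12 in HF and 10 of 12 in Cont. The pairs that did not were at the low end: let-7d-5p and let-7b-5p in HF-R, let-7g-5p and let-7d-5p in HF, and both let-7g-5p with let-7b-5p and let-7b-5p with let-7d-5p in Cont.

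A limit applies to the 7 entries with an oar- name (let-7a-5p, let-7c-5p, let-7i-5p, let-7b, let-7d, let-7f and let-7g). The tables of each library that were used to check other entries give them no counts, and the supplementary list of the study holds other counts for them, with another order of the libraries for let-7g. Their levels, order and ratios hold for the deposited merged table only.

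**Figure D2:**
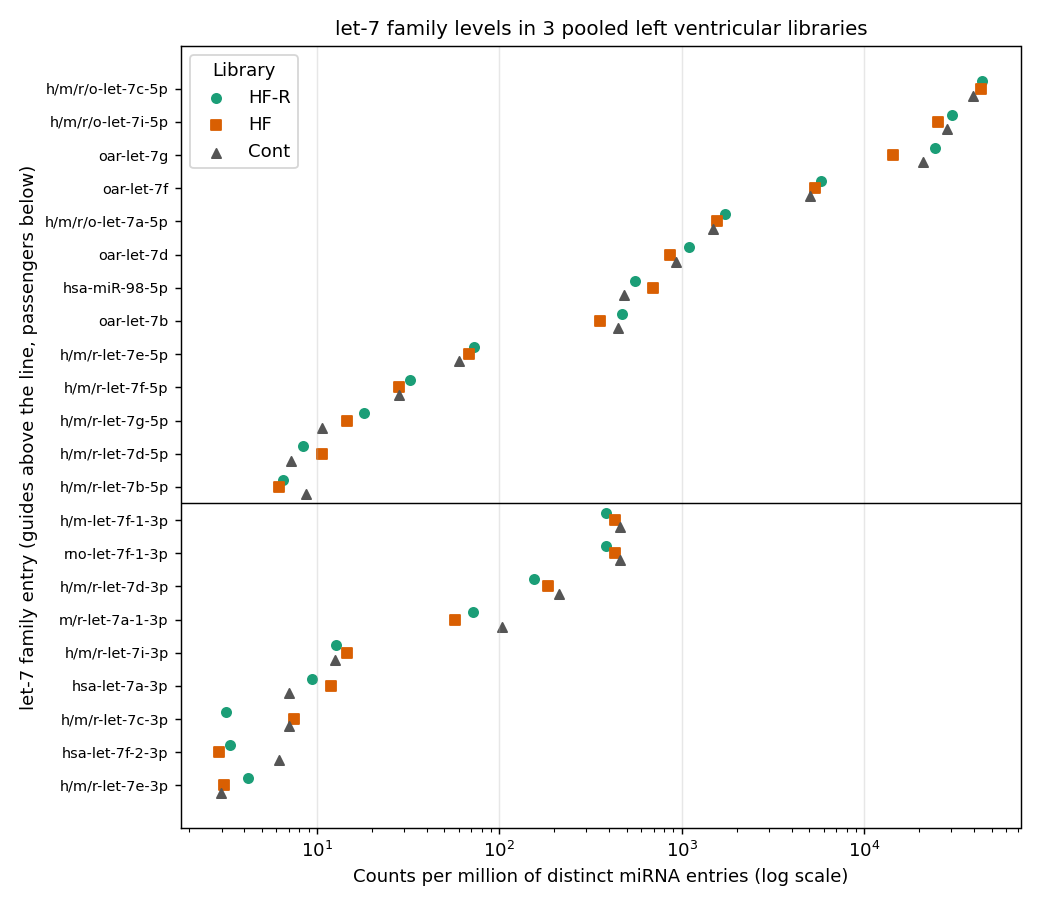
Level of each of the 22 entries whose mean reached 10 counts (rows, guides above the line and passengers below) in CPM on a log axis, 1 point per pooled library. Prefixes h, m, r and o stand for hsa, mmu, rno and oar. Guides run from 44376 CPM (let-7c-5p in HF-R) to 6.17 CPM (let-7b-5p in HF), and the passenger with the most exact reads, let-7d-3p, has 924 counts in HF-R, 1130 in HF and 1001 in Cont. The let-7f-1-3p entries hold partial reads only.

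HF was compared with Cont to see which members moved with pacing. Of the 22 members, 1 was called higher and 2 lower, against 30.6% of all 356 entries called, 22.8% higher and 7.87% lower. None of the 13 guides was called. The median log2 ratio of the members was 0.03, against 0.16 for all entries. The 3 called members were all passengers: hsa-let-7a-3p was higher at 1.72 (1.12 to 2.67), while let-7a-1-3p was lower at 0.55 (0.48 to 0.64) and hsa-let-7f-2-3p at 0.48 (0.25 to 0.88), with 18 counts in HF and 29 in Cont. The call of hsa-let-7a-3p was lost with TMM (1.35) and DESeq2 size factors (1.47).

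Among the guides, 8 of 13 had a ratio above 1 for HF/Cont. Oar-let-7g had the lowest, at 14284 CPM in HF against 21087 in Cont, a ratio of 0.68 (0.67 to 0.68) just short of a call. It was called lower under TMM (0.53), DESeq2 size factors (0.58) and CPM without miR-1 (0.66). Relative to other guides of the same library, which needs no scaling, let-7g stood at 0.81 of let-7i-5p in HF-R, 0.56 in HF and 0.74 in Cont. A second entry at this locus, the partially matched let-7g-5p, did not share that order, with 109 counts in HF-R, 90 in HF and 50 in Cont, or 18.2, 14.6 and 10.6 CPM in HF-R, HF and Cont. The highest guide ratios for HF/Cont were those of let-7d-5p, at 1.49 (0.97 to 2.32) on 66 counts in HF and 34 in Cont, and of miR-98-5p, at 1.45 (1.38 to 1.53). Oar-let-7b was at 0.79 (0.75 to 0.84). The directions depended on the scaling: 12 of 22 members had a ratio above 1 with CPM, 4 with TMM, 4 with DESeq2 size factors and 18 with raw counts, and TMM moved the median log2 ratio of all entries by -0.35.

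HF-R was compared with Cont to see what differed after pacing had ended. Of the 22 members, 1 was called higher and 2 lower, against 16.0% of all entries called, 4.78% higher and 11.2% lower. The partially matched let-7g-5p was higher at 1.71 (1.22 to 2.45). Let-7c-3p was lower at 0.45 (0.24 to 0.82), with 19 counts in HF-R and 33 in Cont, and hsa-let-7f-2-3p was lower at 0.54 (0.29 to 0.99), with 20 and 29 counts in HF-R and Cont. The let-7f-2-3p call was lost under DESeq2 size factors (0.56) and CPM without miR-1 (0.59). The guides lay together: 12 of 13 had a ratio above 1, with a median log2 ratio of 0.21 against -0.03 for all entries, and the 8 most abundant guides spanned only 1.06 to 1.18. Oar-let-7g was at 1.16 (1.15 to 1.17), beside 1.13 for let-7c-5p and 1.06 for let-7i-5p. Of the 9 passengers, 6 had a ratio below 1, and the median log2 ratio of the 9 was -0.25. Among the 6 were the 2 let-7f-1-3p entries, each at -0.25, which count the same reads under 2 lengths.

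HF-R was then compared with HF to see what changed once pacing stopped. Of the 22 members, 1 was called higher and 1 lower, against 28.4% of all entries called, 5.06% higher and 23.3% lower. Oar-let-7g was higher at 1.72 (1.70 to 1.73), with 24526 CPM in HF-R against 14284 in HF. It stayed above 1.5 under every scaling run, from 1.67 with raw counts to 2.20 with TMM. This ratio holds for the deposited merged counts only, and the supplementary list of the study has another order of the libraries for let-7g. The partially matched let-7g-5p at the same locus was at 1.24 (0.93 to 1.66) and not called by CPM. Let-7c-3p was lower at 0.42 (0.23 to 0.74). Among the guides, oar-let-7b at 1.33 (1.26 to 1.41) and oar-let-7d at 1.27 (1.23 to 1.32) came next to let-7g, and miR-98-5p was at 0.80 (0.76 to 0.84). The members had a median log2 ratio of 0.11, against -0.29 for all entries. With TMM 6 members were called higher and 1 lower, beside 25.6% of all entries called in either direction. With DESeq2 size factors 5 were called higher and 1 lower, beside 23.9% of all entries. TMM moved the median of all entries by 0.35. HF is in 2 of these comparisons and Cont in 2, so the 3 sets of ratios are not independent of each other.

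**Figure D3:**
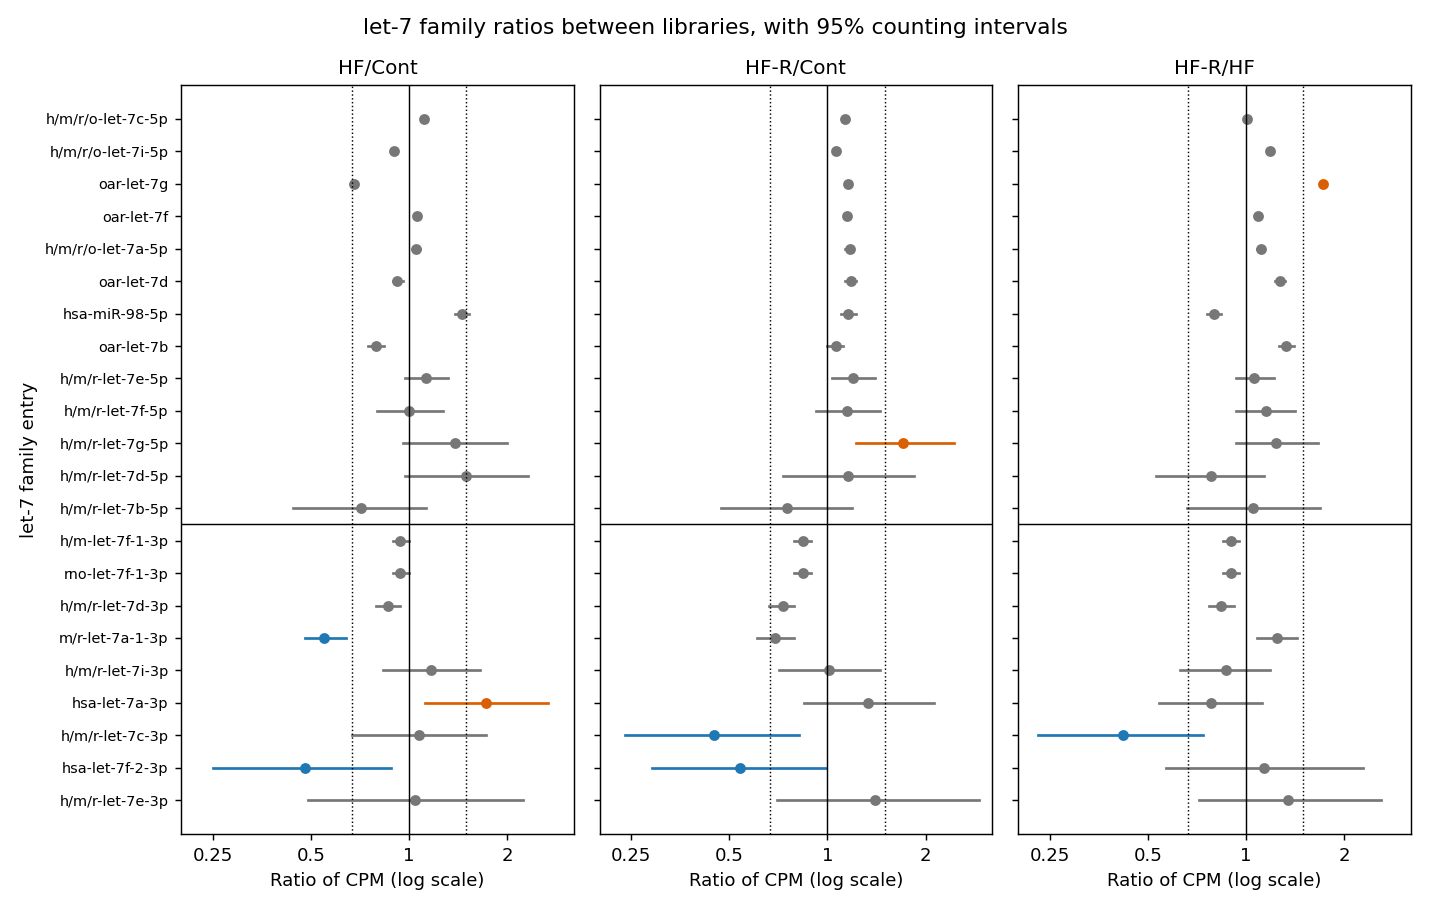
Ratio of CPM (x axis, log scale) for the 22 entries in each of the 3 comparisons, with 95% counting intervals as lines, a solid line at 1 and dotted lines at 1.5 and 1 divided by 1.5. Orange points were called higher and blue points lower. Oar-let-7g is called in HF-R/HF, at 1.72, and the other called entries have wide intervals or belong to the passengers.

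Genes of miR-99, miR-100 and miR-125 lie in shared clusters with let-7 genes in many animals. Their 12 entries with a mean of 10 counts or more had a median log2 HF-R/HF ratio of -0.46, beside -0.29 for all entries, and 2 were called lower (16.7%), beside 23.3% of all entries. MiR-99a, 758 bp from let-7c-5p on chromosome 1, had 371713 counts in HF-R, 522694 in HF and 380314 in Cont. Its HF-R/HF ratio was 0.73 (0.73 to 0.73), while that of let-7c-5p was 1.01 (1.01 to 1.02). Beside let-7e on chromosome 14, miR-99b-5p was at 0.77 (0.75 to 0.79) and the partially matched miR-125a-5p at 1.39 (1.35 to 1.43) for HF-R/HF, with let-7e-5p between them at 1.06 (0.93 to 1.22). On chromosome 15, near let-7a-2, the partially matched miR-100-5p was at 0.73 (0.69 to 0.77). Oar-miR-125b, listed 46697 bp from let-7a-2-3p, was at 0.72 (0.71 to 0.73). The other strands had wide intervals, such as miR-99a-3p at 0.61 (0.31 to 1.17), miR-99b-3p at 0.70 (0.45 to 1.07) and miR-125b-1-3p at 0.96 (0.67 to 1.39). The 2 called entries were partially matched and are listed on chromosome 1, miR-99a-5p at 0.64 (0.59 to 0.69) and miR-125b-5p at 0.44 (0.40 to 0.48). Other strands of miR-125b are listed on chromosome 15 (miR-125b-1-3p) and on chromosome 1 (miR-125b-2-3p). How the miR-125b guide counts divide between these loci was not tested. MiR-125b-5p was also called higher in HF/Cont, at 2.00 (1.81 to 2.20), on 1549 counts in HF and 594 in Cont. The perfectly matched oar-miR-125b, with 94445 counts in HF and 50079 in Cont, was at 1.44 (1.43 to 1.46) and not called.

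Passenger shares were compared between libraries gene by gene. Let-7d had 924 passenger counts beside 6579 of oar-let-7d in HF-R, 1130 beside 5306 in HF and 1001 beside 4391 in Cont. The passenger share of both arms was 12.3% in HF-R (11.6 to 13.1), 17.6% in HF (16.6 to 18.5) and 18.6% in Cont (17.5 to 19.6), so the interval of HF-R lay below the others. Arm shares of miRNAs outside the family were not computed, so how common such a gap is was not tested. The let-7a-1 passenger, with its 21-nt and 22-nt forms summed, was 4.48% in HF-R, 4.27% in HF and 6.94% in Cont (6.38 to 7.54), relative to the let-7a guide of all copies. The let-7e passenger was 5.43%, 4.33% and 4.70% in HF-R, HF and Cont, with overlapping intervals on 25 counts in HF-R, 19 in HF and 14 in Cont. Few passenger reads were listed for the abundant guides, 76 counts of let-7i-3p in HF-R, 90 in HF and 59 in Cont, and 19, 46 and 33 counts of let-7c-3p in HF-R, HF and Cont. For let-7c this is 13990 guides per passenger in HF-R, 5862 in HF and 5621 in Cont. Let-7g-3p had no value in HF-R or HF and 3 counts over its 2 entries in Cont. A library without a value allows up to 3 counts, or 0.501 CPM in HF-R and 0.487 CPM in HF. The guides of the sheep table need not be of the same match class as the exact passenger reads, and the let-7e guide is of partial matches, so these shares compare libraries within a gene rather than give absolute ratios.

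The let-7a-1 passenger was listed in 2 lengths that differ by the last base and moved in opposite directions in HF/Cont. The 22-nt form had 429 counts in HF-R, 353 in HF and 488 in Cont, and the 21-nt form (hsa-let-7a-3p) 56 in HF-R, 74 in HF and 33 in Cont. The 21-nt form made up 11.5% of both in HF-R (8.84 to 14.7), 17.3% in HF (13.9 to 21.3) and 6.33% in Cont (4.40 to 8.78), a share that no scaling can change. HF was the highest library and its interval did not overlap that of Cont. The same direction was common in the libraries: of 21 pairs of exact miRNA forms that end 1 base apart, with at least 20 counts in each library and this pair and that of let-7f-2-3p among them, 17 had a higher share of the short form in HF than in Cont, 6 of them with intervals apart, and 4 had a lower one, 2 of them with intervals apart. Between HF-R and HF, 16 of the 21 had a lower share in HF-R, 5 with intervals apart, and 5 a higher one, 0 with intervals apart. In the rarer let-7f-2-3p the 21-nt form had 1 of 21 counts in HF-R, 3 of 21 in HF and 1 of 30 in Cont. The exact let-7a-1-3p sequence carries 4 names in the tables, among them let-7c-2-3p of mouse and rat.

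MiR-98-5p changed direction with the class of reads counted. Exact reads gave 3328 counts in HF-R, 4284 in HF and 2259 in Cont, while partially matched reads listed under the same name gave 2697 in HF-R, 2015 in HF and 1671 in Cont. HF was thus the highest library for exact reads, and HF-R for partial ones. The HF/Cont ratio was 1.45 on exact reads, 0.92 (0.86 to 0.99) on partial reads and 1.23 (1.18 to 1.28) on their sum. The HF-R/HF ratio was 0.80, 1.38 (1.30 to 1.46) and 0.98 (0.95 to 1.02) on exact, partial and summed reads. Exact reads formed 55.2% of both classes in HF-R (54.0 to 56.5), 68.0% in HF (66.8 to 69.2) and 57.5% in Cont (55.9 to 59.0). Over 100 sequences with at least 50 counts in every class and library, the exact share was higher in HF than in Cont with intervals apart for 52 of them and lower for 8, with a median difference of 4.78 percentage points. The difference of miR-98-5p was 10.53 points, and 11 of the 100 sequences, itself among them, had one at least as high.

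For passengers that had been called, the ratios also differed between exact and partial reads, though not always in direction. The 22-nt let-7a-1-3p had 2830 partial reads in HF-R, 3222 in HF and 2628 in Cont, many times its exact reads, and a HF/Cont ratio of 0.94 (0.89 to 0.99) on these against 0.55 on exact reads. Hsa-let-7a-3p, which listed 212 of its 215 distinct partial reads under let-7a-1-3p too in HF, was at 0.94 on partial reads against 1.72 on exact ones. Hsa-let-7f-2-3p had a HF/Cont ratio of 0.94 (0.89 to 0.99) on partial reads against 0.48 on exact ones. Its HF-R/Cont ratio was 0.85 (0.80 to 0.90) against 0.54. For let-7c-3p the HF-R/HF ratio was 1.18 (0.78 to 1.80) on partial reads against 0.42 on exact ones. Let-7d-3p kept its size, with a HF-R/Cont ratio of 0.73 (0.66 to 0.79) on exact and 0.71 (0.66 to 0.77) on partial reads, and exact shares of 46.5% in HF-R, 48.5% in HF and 46.1% in Cont.

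**Figure D4:**
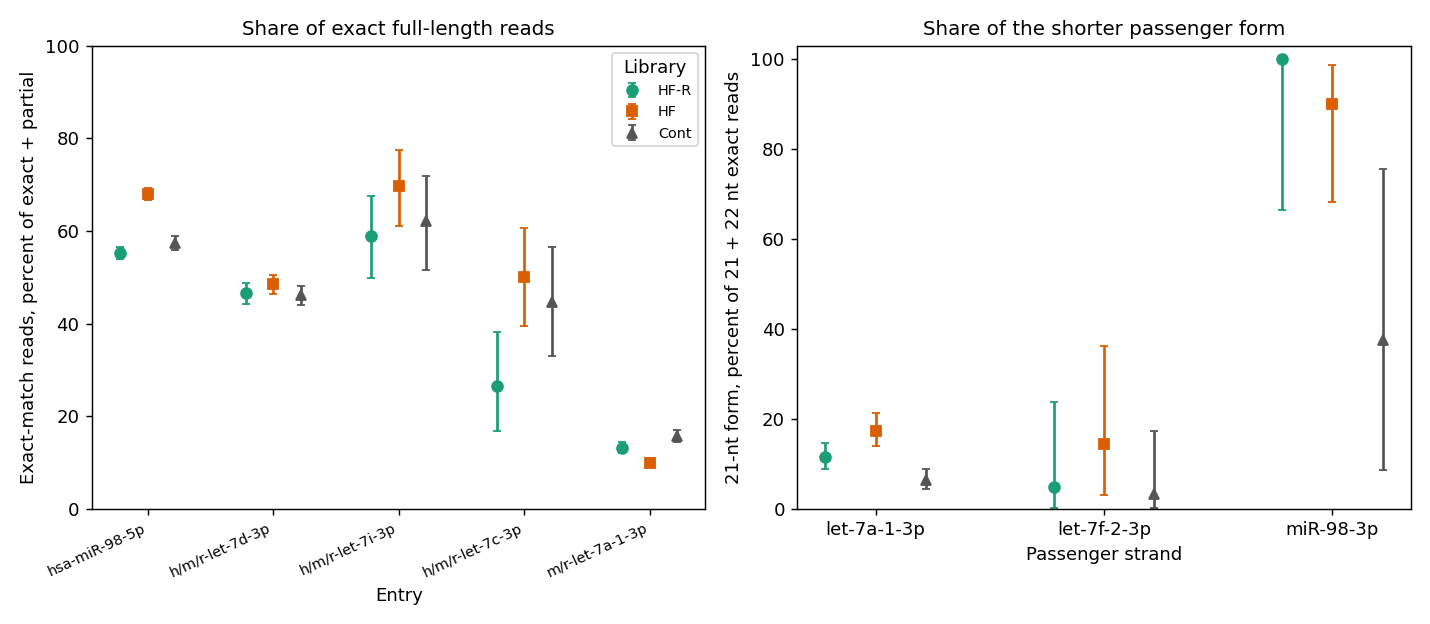
Left, exact full-length reads as a percent of exact and partial reads for 5 entries. Right, the 21-nt form as a percent of the 21-nt and 22-nt exact reads of 3 passengers. Points are the HF-R, HF and Cont libraries and bars 95% Clopper-Pearson intervals. MiR-98-5p reaches 68.0% in HF against 55.2% in HF-R and 57.5% in Cont, and the 21-nt share of let-7a-1-3p is 17.3% in HF against 11.5% in HF-R and 6.33% in Cont.

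The partial classes rested on reads that several let-7 names share. Each table lists the distinct sequences behind a count, without the number of reads of each. In HF, let-7f-1-3p had 72 distinct reads, and 58 of them (80.6%) were also listed under let-7a-1-3p. At positions 13 and 16, where these passengers differ, 43 of the 72 carried the bases of let-7a-1-3p and 9 those of let-7f-1-3p. In HF-R this was 49 and 8 of 76 reads, and in Cont 44 and 5 of 59. The count of let-7f-1-3p, 2314 in HF-R, 2652 in HF and 2158 in Cont for the 22-nt entry, therefore includes reads with the let-7a-1 sequence, and a 21-nt entry (rno-let-7f-1-3p) repeats it with 2314, 2652 and 2159 counts in HF-R, HF and Cont. Let-7f-2-3p shared 142 of its 158 reads with let-7a-1-3p in HF, and 94 of its 110 reads with 1 to 3 substitutions were changed at position 8, the base that separates the passengers. Let-7e-3p shared 23 of 29 reads with let-7a-2-3p. Without the partial entries, the passengers summed to 1552 counts in HF-R, 1742 in HF and 1669 in Cont, with ratios of 0.80 (0.75 to 0.85) for HF/Cont, 0.73 (0.68 to 0.78) for HF-R/Cont and 0.92 (0.85 to 0.98) for HF-R/HF.

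**Figure D5:**
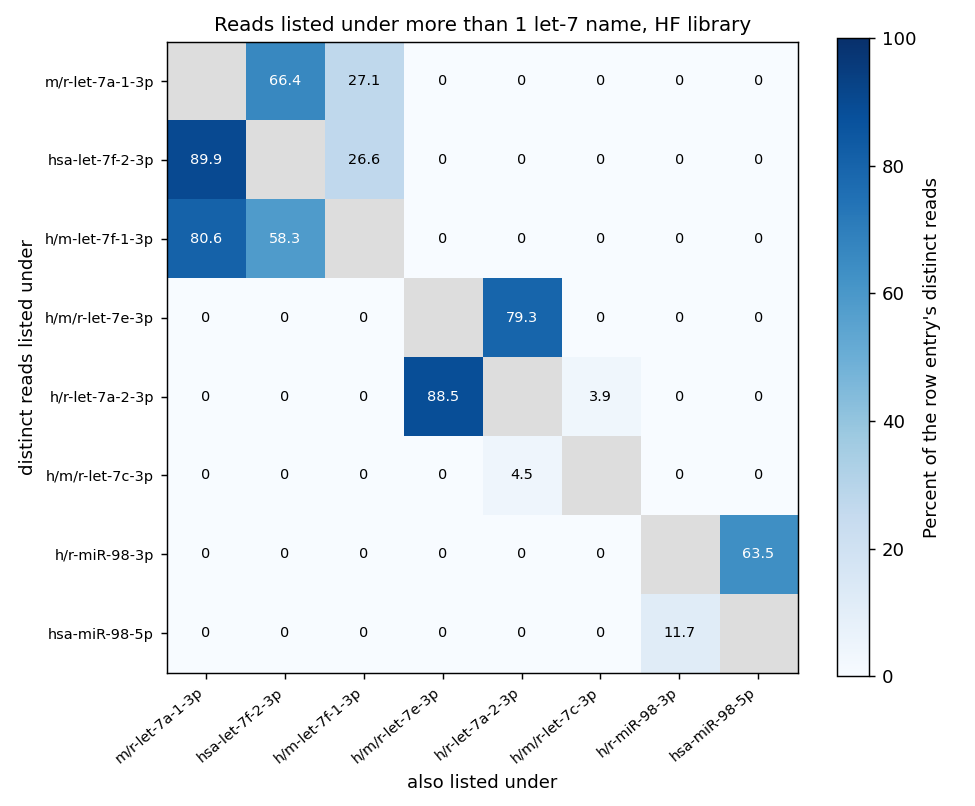
Percent of the distinct partially matched reads of each row entry that were also listed under the column entry, in the HF library. Prefixes are shortened to h, m and r for hsa, mmu and rno. The let-7a-1, let-7f-2 and let-7f-1 passengers share 26.6% to 89.9% of their reads, and let-7e-3p and let-7a-2-3p 79.3% and 88.5%.

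Reads were also listed across strands. MiR-98-3p had 52 distinct partial reads in HF, of which 33 (63.5%) were listed under miR-98-5p as well, and 14 carried the guide seed at bases 2 to 8. In HF-R 29 of 48 and in Cont 18 of 34 were shared in this way. Beyond the family rule, 3 rat names lie on the opposite strand of let-7 guides, chosen here after their values were seen. Rno-miR-3596c, opposite let-7e-5p, had 428 counts in HF-R, 413 in HF and 276 in Cont, beside 435, 420 and 284 of let-7e-5p in HF-R, HF and Cont. All of its distinct reads, 123 in HF-R, 129 in HF and 99 in Cont, were also listed under let-7e-5p, so the same reads were counted under both names. Rno-miR-3596b, opposite let-7d-5p, likewise listed the same reads as that guide, 18 in HF-R, 29 in HF and 12 in Cont. Rno-miR-3596d did not follow this pattern, since it shared 1 of 8 reads with let-7f-5p in HF-R, 0 of 5 in HF and 0 of 2 in Cont.

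The 5 partially matched guides were small, 826 counts in HF-R, 787 in HF and 541 in Cont together. Let-7f-5p had 193 counts in HF-R, 173 in HF and 132 in Cont, let-7d-5p 50, 66 and 34, and let-7b-5p 39, 38 and 41 in HF-R, HF and Cont. Their reads had a narrow pattern. In let-7b-5p, let-7f-5p and let-7g-5p every distinct read with 1 to 3 substitutions over the first 18 bases was changed at position 11, in each library, for example 15 of 15 such reads of let-7g-5p in HF. In let-7d-5p 17 of 25 were changed at position 10 in HF and 8 at position 11. None of the 5 entries has an exact count in any library. Let-7e-5p, the only 1 of them whose gene has no oar- entry, was different. In HF 42 of its 110 such reads were changed at position 13 and none at positions 8 to 11. Of the 8 distinct reads of let-7g-5p listed in all 3 libraries, 3 are shown with the changed base in capitals, because they give the pattern directly.
let-7g-5p read with G11A: tgaggtagtaAtttgtacagtt
let-7g-5p read with G11C: tgaggtagtaCtttgtacagtt
let-7g-5p read with G11T: tgaggtagtaTtttgtacagtt

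The remaining 6 passengers were at or near the limit of counting. Let-7a-2-3p of 22 nt had 2 counts in HF-R, 6 in HF and 3 in Cont, and miR-98-3p of 22 nt had 2 in HF and 5 in Cont, with no value in HF-R. On exact reads, differences between libraries were not detectable at this depth for these entries. On partial reads let-7a-2-3p was called lower in HF-R/HF, at 0.62 (0.42 to 0.91) for the 22-nt entry and 0.59 (0.40 to 0.87) for the 21-nt entry. In HF, 23 of the 26 distinct partial reads of the 22-nt entry were also listed under let-7e-3p.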

How the data were processed

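Small RNA of pooled sheep left ventricle was sequenced as 1 library per condition (HF-R, HF and Cont). The authors kept reads of 15 to 30 nt, aligned them with Blast to miRBase v21 and mapped the miRNAs to Oar v4.0 with Bowtie (versions not given in the sources used here). The authors deposited unscaled read counts for each miRNA entry, in merged tables of the 3 libraries and in tables of each library by match class, which also list the distinct reads. Libraries with an empty cell were treated as having no value. Sheets that repeat the merged rows by match class were not used.

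The family and the lists were chosen with earlier results of these data known. Family entries whose mean over the libraries with a value reached 10 counts were named with their counts, and the others by number and range. Overlapping entries with equal counts were taken once (636 entries, 621 distinct). Ratios are of CPM, with Clopper-Pearson 95% intervals. The code was tested on simulated counts. Scalings, filters, fold limits and read classes were varied. No replicates exist, so no p-value was computed. Endothelial miR-126 was not analysed here, and cell type lists were summed as CPM: leukocyte entries gave 488, 454 and 565 CPM, skeletal muscle miR-206 7.18, 6.82 and 5.09, and neuronal entries 43.4, 92.8 and 86.8 in HF-R, HF and Cont. Python 3.11.15, numpy 2.4.6, scipy 1.17.1, pandas 2.3.3, matplotlib 3.10.9, R 4.3.3, edgeR 4.0.16 (TMM) and DESeq2 1.42.0 (size factors) were used, the last 2 for scaling only.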

Additional observations from a re-analysis of the deposited data

Results flagged for a closer look

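A 21-nt form of the miR-98 passenger (rno-miR-98-3p) appeared in the exact reads of each library but not in the merged counts used for the comparisons above. It had 9 counts in HF-R, 18 in HF and 3 in Cont, and a library without a value allows up to 3 counts. The HF/Cont ratio was 4.59 (1.34 to 24.34). The HF-R/Cont ratio was 2.36 (0.59 to 13.55), with an interval that included 1. The HF-R/HF ratio was 0.51, with an interval that included 1. These intervals cover counting error only. The 22-nt form went the other way, with 2 counts in HF and 5 in Cont. The partial reads of miR-98-3p, 262 in HF and 189 in Cont, had a HF/Cont ratio of 1.06 (0.88 to 1.29). Of their distinct sequences, 33 of 52 in HF and 18 of 34 in Cont were also listed under miR-98-5p. The 21-nt form made up 9 of 9 exact miR-98-3p counts in HF-R, 18 of 20 in HF and 3 of 8 in Cont. A higher share of the short form in HF than in Cont was common, in 17 of the 21 pairs with at least 20 counts in each library. In 4 of them it was lower.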

How the results depend on the processing

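The alternatives were other scalings, filters, fold limits and read classes, and 2 were added after the data were seen: let-7f-1-3p taken once, and exact and partial counts summed. No paired analysis was possible because each condition had 1 library, and for the same reason no replicate could be left out. Counts of each library could not be set in place of the merged ones for the 7 oar- entries, so shares and guide sums by match class were not run, nor was the arm ratio by class except for miR-98. The miR-98 guide count divided by the passenger count was 7.69 on partial reads in HF, against 2142 on exact reads. In Cont it was 8.84, against 452. Of the distinct partial reads of miR-98-3p, 33 of 52 in HF and 18 of 34 in Cont were also listed under the guide. The partial values therefore do not compare separate strands.

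With the settings of the report, HF/Cont had 3 called members of 22, HF-R/Cont 3 and HF-R/HF 2. The share of all entries called was 30.6% in HF/Cont, 16.0% in HF-R/Cont and 28.4% in HF-R/HF. In HF/Cont the directions were opposite between scalings. By CPM 1 was higher and 2 lower, with TMM 5 lower and 0 higher, and with raw counts 5 higher and 0 lower. The share of all entries called there was 32.6% with TMM and 46.6% with raw counts. The number was 1 of 14 at a mean of at least 100, beside 31.8% of all entries. It was 6 at a fold of 1.2 (47.5% of all entries), 1 at a fold of 2 (14.0%) and 0 with partial or with summed reads. In HF-R/Cont the number stayed 3 with raw counts (22.8% of all entries), but as 3 higher and 0 lower against 1 higher and 2 lower by CPM. It was 0 of 14 at a mean of at least 100 (15.1% of all entries), 6 at a fold of 1.2 (32.3%) and 1 at a fold of 2 (5.06%). With partial or with summed reads it was 1. In HF-R/HF the number was 7 with TMM (25.6% of all entries) and 6 with DESeq2 size factors (23.9%). It was 1 of 14 at a mean of at least 100 (29.7% of all entries), 6 at a fold of 1.2 (49.4%) and 1 at a fold of 2 (11.5%). There the number was 1 with exact reads, 3 with partial reads and 2 with summed reads, and all calls on partial or summed reads were lower. Exact, partial and summed reads were counted for members only, so these numbers have no share of all entries beside them. The summed guide ratio turned to 1.24 for HF/Cont with raw counts and was called at 1.51 for HF-R/HF with TMM. The summed passenger ratio here is of all 15 entries, which count the let-7f-1-3p reads under 2 lengths. By CPM it was 0.90 in HF/Cont, 0.81 in HF-R/Cont and 0.90 in HF-R/HF. This ratio turned to 1.18 in HF/Cont and 1.03 in HF-R/Cont with raw counts. In HF-R/HF it turned to 1.15 with TMM, 1.10 with DESeq2 size factors and 1.00 with CPM without miR-1. With duplicates kept, the family share was 10.4% in HF-R, 8.68% in HF and 9.19% in Cont. Among called entries, the direction turned for let-7c-3p on partial reads (1.02 in the HF-R/Cont comparison, 1.18 in HF-R/HF) and for hsa-let-7a-3p in HF/Cont on partial (0.94) and summed reads (0.95). At a fold of 2 the oar-let-7g call in HF-R/HF (1.72) was lost. The causes were not tested.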
